A study of Mus musculus with 50 samples.

Results

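The comparison described here asks whether the difference between lymph nodes draining the duodenum and those draining the ileum was the same in mice on 2 diets. For each gene the duodenal minus ileal difference on a vitamin A deficient diet was taken, and the same difference on a vitamin A sufficient diet was subtracted from it. This interaction compares 20 of the 50 libraries of the series, with 5 libraries in each of 4 groups. It was tested in a fit to all 50 libraries, so the other nodes add to the estimates of spread and of the sex term. A fit on the 20 libraries alone called 2 genes. The members are the genes of this interaction, 41 of 18387 genes tested.

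The study sequenced poly(A) RNA of lymph nodes along the gut and of inguinal nodes from C57BL/6J mice. Dams were 7 to 8 weeks old when they were put on a diet without vitamin A, or on a matched diet with vitamin A restored at 20 IU/g, 3 weeks before they were bred. Pups of the second and the third litters were sampled at 8 weeks of age (postnatal day 56). The 4 groups are thus duodenal and ileal nodes on either diet, all of 1 strain and age. All 10 deficient libraries used are female. On the sufficient diet numbers 1 and 2 are female and numbers 3, 4 and 5 male, in duodenal and ileal nodes alike. Dam and litter cannot be told apart from the diet. No label ties nodes to a mouse or a library to its litter, so p-values measure only the spread between libraries of the series.

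Vitamin A is stored as retinyl esters, oxidised to retinal and then to retinoic acid, and retinoic acid acts through nuclear receptors that bind DNA. Lymph flows from each stretch of intestine to its own node, and the upper small intestine, where dietary fat and vitamin A are absorbed, drains to duodenal nodes. Dendritic cells from the intestinal wall and stromal cells of the node are known sources of retinoic acid, which imprints gut homing on lymphocytes.

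The 20 libraries held 6288059 to 8896556 estimated counts each, with a median of 7693274. Summed levels of 15 B cell genes lay between 5327 and 8833 CPM (counts scaled to library size) and those of 16 T cell genes between 1975 and 3452 CPM, so the defining lymphocyte markers of a node were present in every library. Genes of the pancreas took 3.68% and 24.2% of counts in sufficient duodenal libraries 2 and 5, and 3.03%, 1.89% and 22.2% in deficient duodenal libraries 2, 3 and 4. No ileal library was above 1%. The processed pseudogene Gm19220 took 1.32% to 1.70% of counts in deficient duodenal library 3 and deficient ileal libraries 2 and 3, against 5.62% to 9.40% in the other 17. Fits without the libraries rich in pancreas genes are given for the count of calls and for Ccl22, Col12a1, Angpt2 and Plk1. Those without the libraries of low Gm19220 share are given for the count, Ccl22 and Angpt2. The part of these libraries in the other results was not tested.

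At an adjusted p below 0.05 the interaction passed for 41 genes, which is 0.223% of those tested. It was positive, meaning relatively higher in duodenal nodes on the deficient diet, for 34 genes (0.185%) and negative for 7 (0.0381%). The positive genes included the dendritic cell chemokine Ccl22, the actin-bundling protein Fscn1, the matrix proteins Col12a1, Ltbp2 and Prelp and the endothelial protein Plvap. Among the negative genes were the vessel ligand Angpt2 and the integrin chain Itgax (CD11c). The size of the positive interactions on the log2 scale ran from 0.45 to 1.77 with a median of 0.78, and that of the negative ones from 0.58 to 2.05. At an unadjusted p below 0.05 stood 1904 genes, 1116 positive and 788 negative.

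No call held in 2 fits that handled sex otherwise. Males are only on the sufficient diet, so with a sex term for each node the sufficient means rest on females, 2 libraries per node. With that term edgeR called 0 genes (1057 at an unadjusted p below 0.05). With female libraries alone, close to the same estimate, it called 0 (1076 at that level). In these fits fewer libraries and a sex difference between nodes cannot be told apart. All 41 genes kept their sign in both, with median ratios to the full fit of 0.968 and 0.970 and a range of 0.674 to 1.448. The genes were selected on libraries that both fits reuse, so kept signs add no support. A fit on the 20 duodenal and ileal libraries alone called 2, Col12a1 and Plvap. Without the 5 duodenal libraries above 1% pancreas genes 1 was called, Ccl22, so the other 40 genes lost the call there, while all 41 kept their sign with a median ratio of 1.067 (range 0.751 to 1.314). Leaving out all nodes of a single library number gave 13, 39, 4, 2 and 34 calls without sufficient numbers 1 to 5. Without deficient numbers 1 to 5 it gave 14, 5, 32, 17 and 26. Ccl22 and Col12a1 passed in all 10 of these fits and the other 39 genes did not.

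**Figure D1:**
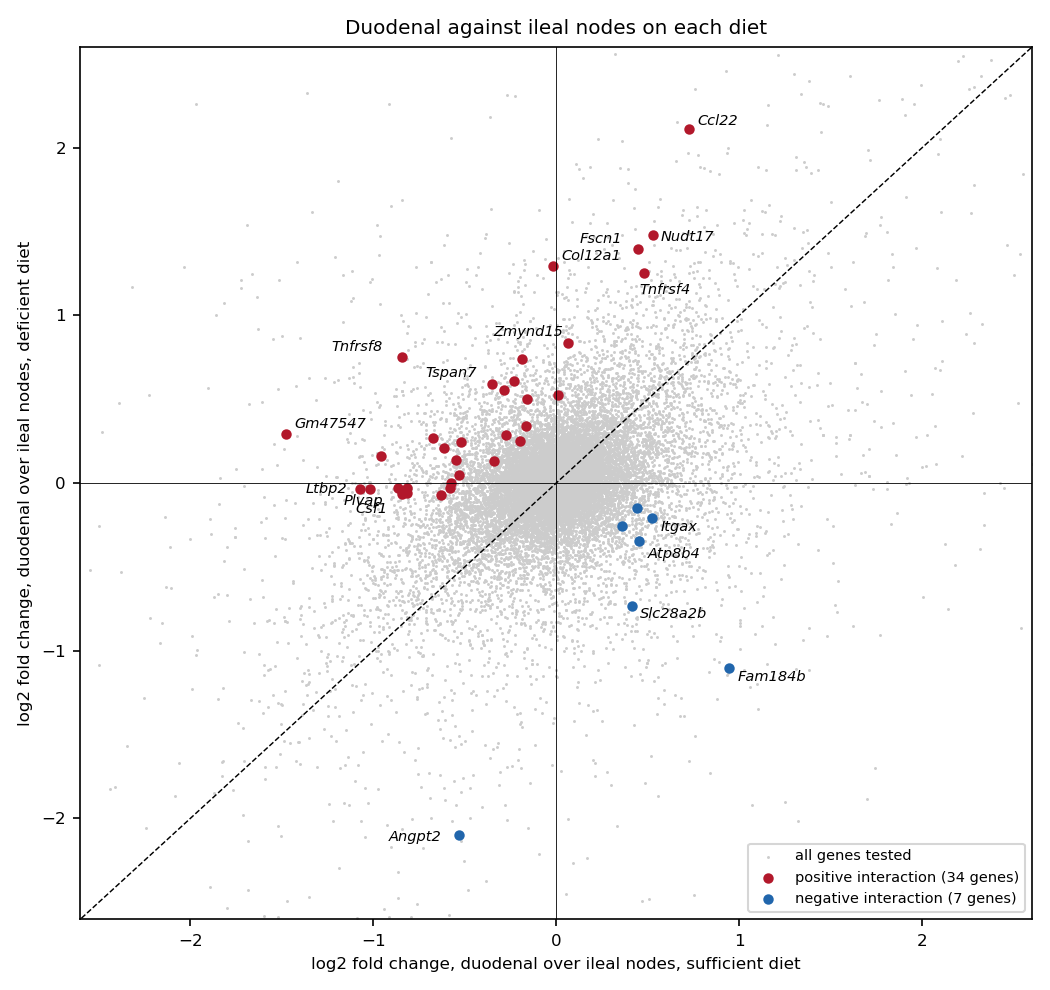
Log2 fold change of duodenal over ileal nodes on the sufficient diet (horizontal axis) and on the deficient diet (vertical axis), 1 grey point for each gene tested, with red for the 34 positive and blue for the 7 negative genes and a dashed line where both diets are equal. Most red points lie left of 0 near the horizontal axis or in the upper part of the plot, and 306 genes beyond 2.6 on either axis are not drawn.

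Each interaction has a part from either diet and from either node, and these parts share libraries with the interaction and do not add support to it. On the deficient diet 1029 genes (5.6%) differed between duodenal and ileal nodes. Of the 34 positive genes, 15 were higher in duodenal nodes there (2.9% of all genes were) and 0 lower (2.7%). On the sufficient diet, where 1484 genes differed (8.07%), 3 of the 34 were higher (3.05% of all genes) and 20 lower (5.03%) in duodenal nodes. Between diets, 1864 genes changed in duodenal nodes (10.1%), with 23 of the 34 up on the deficient diet (6.19% of all genes) and 0 down (3.95%). In ileal nodes 1048 changed (5.7%), with 3 of the 34 up (2.74% of all genes) and 12 down (2.96%). Of the 7 negative genes, 3 were lower in duodenal nodes on the deficient diet and 4 higher on the sufficient diet. With deficiency, 4 of the 7 were lower in duodenal nodes and 3 higher in ileal nodes.

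For 11 of the 34 genes the call was the same in all parts. They were called lower in duodenal than ileal nodes on the sufficient diet and not different on the deficient diet. A rise with deficiency was called in duodenal nodes, and no change was called in ileal nodes. Their ileal changes ran from log2 -0.68 (Tnfrsf8, adjusted p = 0.122) to 0.19 (Ucp2, adjusted p = 0.328). A change that was not called is not shown to be absent. For 6 others, Ltbp2, Csf2rb2, Gm47547, Csf1, Fam171a1 and Cyp1b1, the duodenal level was also lower on the sufficient diet. For these a fall with deficiency was called in ileal nodes, and no change was called in duodenal nodes. Ebi3, Zmynd15, Lrg1, Tagln2 and Fscn1 were higher in duodenal nodes on the deficient diet and rose there. Col12a1, Tspan7 and Ptger4 were higher in duodenal nodes on the deficient diet, and fell in ileal nodes.

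Among dendritic cell genes, Ccl22, Fscn1 and Nudt17 were relatively higher in duodenal nodes on the deficient diet, and Itgax was relatively lower. Ccl22 (chr8:94745590-94751699, plus strand in GENCODE M21, build GRCm38) encodes a chemokine that mature dendritic cells release and that draws cells with the receptor Ccr4. It stood at 143, 204, 239.7, 157 and 177 CPM in sufficient duodenal libraries 1 to 5 and at 104, 117, 111, 95.4 and 129 CPM in sufficient ileal ones. On the deficient diet, levels were 333, 373, 178, 282 and 249 CPM in duodenal and 80.1, 68.2, 55.3, 64.2 and 59.5 CPM in ileal nodes. Duodenal levels lay above ileal ones without overlap on both diets, and the gap was 1.66-fold on the sufficient and 4.32-fold on the deficient diet. With deficiency Ccl22 rose in duodenal nodes (log2 0.65 ± 0.16, SE, adjusted p = 0.00471), with overlapping ranges, and fell in ileal nodes (-0.74 ± 0.16, adjusted p = 0.00184), with no overlap. The interaction was 1.39 ± 0.21 on the log2 scale (SE, 5 libraries per group, adjusted p = 6.4e-04 by edgeR). The lowest deficient duodenal value, 178 CPM, was that of library 3, which has a low Gm19220 share. Without the libraries of low share the interaction was 1.45 (adjusted p = 2.2e-04), and with females alone it was 1.45 (adjusted p = 0.253).

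The sequence ahead of the Ccl22 start is shown because it holds the half-site AGGTCA that retinoic acid receptors are known to bind, as does that of Tspan7, a gene with a lower ileal level on the deficient diet. The promoter of Ebi3 is shown as one with a match to the NF-kB consensus. Each line gives the 250 bases before the start in RefSeq (GRCm38.p6), 5′ to 3′ along the gene, with matches in capitals. Both strands were searched, and a match on the other strand reads TGACCT.
Ccl22, chr8:94745434-94745683, plus strand: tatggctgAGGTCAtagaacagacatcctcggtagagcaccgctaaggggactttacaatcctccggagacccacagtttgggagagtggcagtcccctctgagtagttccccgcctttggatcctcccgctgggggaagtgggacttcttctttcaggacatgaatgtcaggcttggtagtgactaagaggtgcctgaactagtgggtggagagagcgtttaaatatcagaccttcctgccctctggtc
Tspan7, chrX:10484866-10485115, plus strand: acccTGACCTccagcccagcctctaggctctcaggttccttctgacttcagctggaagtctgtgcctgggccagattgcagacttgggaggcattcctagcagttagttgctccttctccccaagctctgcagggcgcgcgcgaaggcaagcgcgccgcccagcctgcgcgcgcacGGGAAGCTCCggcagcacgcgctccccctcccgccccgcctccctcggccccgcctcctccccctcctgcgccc
Ebi3, chr17:55952373-55952622, plus strand: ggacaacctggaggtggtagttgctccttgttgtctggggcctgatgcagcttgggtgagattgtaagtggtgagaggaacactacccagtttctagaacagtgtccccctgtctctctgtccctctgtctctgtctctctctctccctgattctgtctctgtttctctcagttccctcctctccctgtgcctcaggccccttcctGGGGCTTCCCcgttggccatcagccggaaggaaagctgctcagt
Distances here are from the RefSeq start, and the GENCODE start of Ccl22 given above lies within the 250 bases shown. The half-site began 242 bases before the RefSeq start in Ccl22 and 246 in Tspan7. In Tspan7 an NF-kB match began at 74 bases and did not overlap it, and in Ebi3 an NF-kB match began at 44 bases. Of the 41 genes 35 matched a promoter in the table, and 6 of them (17.1%) held AGGTCA, against 1628 of 12073 genes (13.5%). The NF-kB consensus was in 7 of the 35 (20.0%), against 10.7% of all genes. These are matches of letters and show no binding.

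Fscn1, which bundles actin and is abundant in mature dendritic cells, read 309, 463, 562, 308 and 590.4 CPM in sufficient duodenal and 337, 279, 334, 298 and 378 CPM in sufficient ileal nodes. Deficient duodenal nodes had 980.1, 948, 635, 948 and 757 CPM, and deficient ileal nodes 394, 335, 267, 274 and 351 CPM. All 5 deficient duodenal libraries were above every other library of the comparison. The rise with deficiency was 1.08 ± 0.17 in duodenal nodes (log2 ± SE, adjusted p = 1.4e-05) against 0.13 ± 0.16 in ileal nodes (adjusted p = 0.747), an interaction of 0.95 ± 0.22 (adjusted p = 0.0417). The Nudix hydrolase Nudt17, a gene of migratory dendritic cells in the list used, averaged 33.97 ± 3.46 and 23.6 ± 3.75 CPM in sufficient duodenal and ileal nodes (SD, n = 5). On the deficient diet it averaged 42.2 ± 7.73 and 15.1 ± 3.36 CPM, with no overlap between the nodes (interaction 0.95 ± 0.19, adjusted p = 0.0189).

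Itgax, the CD11c integrin chain of dendritic cells, went the other way. Its sufficient duodenal libraries had 86.3, 94.02, 82.6, 62.3 and 72.5 CPM and the sufficient ileal ones 52.98, 67.7, 55.3, 50.4 and 49.7 CPM. Deficient duodenal libraries, at 43.3, 45.9, 39.5, 42.1 and 46.03 CPM, all lay below the sufficient ones, while deficient ileal libraries, at 49.3, 56.3, 46.9, 45.7 and 52.7 CPM, overlapped theirs. Itgax fell in duodenal nodes (-0.97 ± 0.12, adjusted p = 3.3e-07) and its interaction was -0.73 ± 0.16 (adjusted p = 0.0382). Of the 23 dendritic cell genes tested, 3 were called positive (Ccl22, Nudt17, Fscn1) and 1 negative (Itgax), and 19 did not pass. Of all genes 0.185% were called positive and 0.0381% negative. The median interaction of the 23 was 0.11, against 0.01 over all genes. The chemokine Ccl17, which shares its receptor with Ccl22, had an interaction of 1.07 (adjusted p = 0.33), and Ccr7, which guides dendritic cells into nodes, one of 0.06 (adjusted p = 0.95). Summed levels of the 23 genes were 1951 to 2668 CPM in deficient duodenal, 1340 to 1596 in deficient ileal, 1767 to 2257 in sufficient duodenal and 1536 to 1686 CPM in sufficient ileal nodes. In bulk RNA of a node, more cells of a type and more RNA of a gene per cell cannot be told apart.

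**Figure D2:**
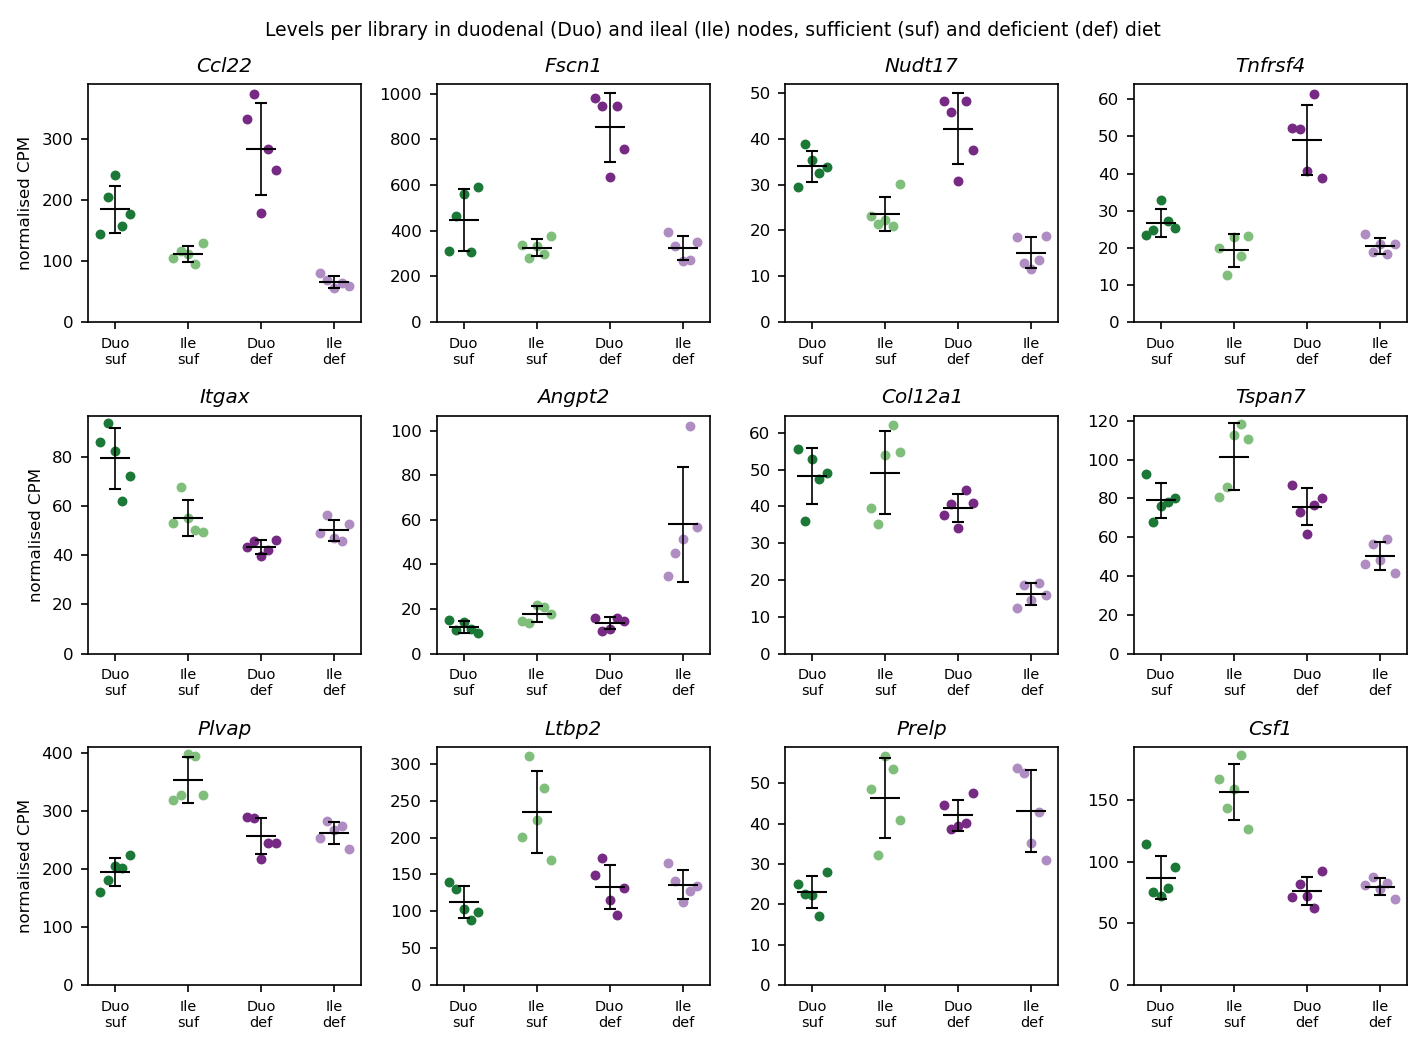
Level of 12 genes in normalised CPM (vertical axes) in each of the 20 duodenal (Duo) and ileal (Ile) libraries on the sufficient (suf) and deficient (def) diets, with points for libraries and bars for mean ± SD. Ccl22, Fscn1, Nudt17 and Tnfrsf4 are highest in deficient duodenal nodes, Angpt2 in deficient ileal nodes, and Plvap, Ltbp2 and Csf1 in sufficient ileal nodes.

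The secreted immune factors Ebi3 and Csf1 both had a positive interaction. Ebi3, a subunit of the cytokines IL-27 and IL-35, read 13.9, 12.6, 15.6, 18.3 and 12.5 CPM in deficient duodenal and 8.71, 9.25, 10.7, 6.89 and 7.88 CPM in deficient ileal nodes, with no overlap. On the sufficient diet the nodes overlapped, at 9.40, 9.65, 14.6, 11.2 and 9.45 CPM in duodenal and 11.8, 9.59, 15.8, 10.99 and 13.8 CPM in ileal libraries. Its interaction was 0.93 ± 0.19 (adjusted p = 0.0189). In the edgeR fit with its sex term Ebi3 rose with deficiency in duodenal nodes (0.62 ± 0.15, adjusted p = 0.00324). The ileal change was -0.30 ± 0.15 (adjusted p = 0.26), so a fall there was not called and is not shown to be absent. Csf1, the growth factor of macrophages, had 167, 144, 159, 187 and 126 CPM in sufficient ileal nodes and 114, 75.3, 72.2, 78.8 and 95.7 CPM in sufficient duodenal ones. Deficient libraries of the nodes overlapped, at 62.7 to 92.9 CPM in duodenal and 69.9 to 87.9 CPM in ileal nodes. Csf1 fell with deficiency in ileal nodes (-0.99 ± 0.13, adjusted p = 1.8e-06) and not detectably in duodenal ones (-0.21 ± 0.13, adjusted p = 0.345).

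Tnfrsf4 (OX40), a costimulatory receptor of activated and regulatory T cells, had 52.2, 52.02, 40.8, 61.5 and 38.7 CPM in deficient duodenal nodes. That range lay above all other libraries, which read 23.4 to 32.9 CPM in sufficient duodenal, 12.5 to 23.1 in sufficient ileal and 18.3 to 23.8 CPM in deficient ileal nodes. The interaction was 0.77 ± 0.18 (adjusted p = 0.0417). Its relative Tnfrsf8 (CD30) was near the floor of what was tested, at 4.39 ± 1.21 CPM in deficient duodenal and 2.59 ± 0.626 CPM in deficient ileal nodes against 2.07 ± 1.01 and 3.59 ± 1.07 CPM on the sufficient diet (1.59 ± 0.34, adjusted p = 0.0279). Capg, an actin-capping protein, rose with deficiency in both nodes, from 98.7 to 172 CPM in duodenal and from 113 to 144 CPM in ileal means. Its interaction was 0.45 ± 0.09 (adjusted p = 0.0189). Tnfrsf4 and Capg were the 2 of 15 regulatory T cell genes that passed, both positive (0.185% of all genes were), and the list's median was 0.11. The lineage factor Foxp3 had an interaction of 0.11 (adjusted p = 0.93).

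Among other receptors and surface proteins, Ptger4 and Csf2rb2 were positive and Ms4a4b negative. Ptger4, the EP4 receptor of prostaglandin E2, stood at 46.4 ± 2.51 CPM in deficient duodenal and 32.3 ± 3.06 CPM in deficient ileal nodes, and at 40.02 and 39.8 CPM on the sufficient diet (0.51 ± 0.11, adjusted p = 0.0234). Csf2rb2, a beta chain of the IL-3 receptor, averaged 289.7 CPM in sufficient ileal nodes against 197, 238 and 216 CPM in sufficient duodenal, deficient duodenal and deficient ileal nodes (0.69 ± 0.15, adjusted p = 0.0315). Its sequence is close to that of Csf2rb, so the share of reads given to it is uncertain. The glycoprotein Lrg1 averaged 116 CPM in deficient duodenal nodes and 82.2 to 106 CPM in the other groups (0.66 ± 0.14, adjusted p = 0.0315). Ms4a4b, a membrane protein of T cells, was negative, with 207, 184, 206, 189.9 and 148 CPM in deficient ileal and 119, 122, 119, 116 and 145 CPM in sufficient ileal nodes. All deficient ileal libraries lay above the sufficient ones for Ms4a4b, and its duodenal means were 156 and 159.5 CPM (interaction -0.62 ± 0.14, adjusted p = 0.0444).

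Angpt2 and Plvap, both expressed by blood vessels, had a negative and a positive interaction. Angpt2 (chr8:18690263-18741562, minus strand), a ligand of the endothelial receptor Tie2 that opposes vessel quiescence, read 15.2, 10.4, 13.9, 11.1 and 9.003 CPM in sufficient duodenal and 14.7, 13.8, 21.8, 20.7 and 17.6 CPM in sufficient ileal nodes. On the deficient diet it read 16.001, 10.2, 10.998, 15.99 and 14.6 CPM in duodenal and 34.95, 45.1, 51.4, 102 and 56.6 CPM in ileal nodes. The deficient ileal libraries were all above every other library, and library 4 was the highest. Angpt2 rose in ileal nodes (1.91 ± 0.26, adjusted p = 2.3e-06), and the interaction was -1.57 ± 0.35 (adjusted p = 0.0344). Leaving out a library number gave -1.33 (without deficient 4, adjusted p = 0.0456) to -1.77, and Angpt2 passed in 3 of these 10 fits, with the largest adjusted p at 0.148 without sufficient 1. It missed the threshold with females alone (adjusted p = 0.470), without the libraries rich in pancreas genes (adjusted p = 0.233), without those of low Gm19220 (adjusted p = 0.0644) and in limma-voom (adjusted p = 0.0672).

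Plvap (chr8:71497765-71511752, minus strand) forms the diaphragms of fenestrated endothelium. It had 160.4, 181, 205, 202 and 223 CPM in sufficient duodenal and 319, 327, 398, 394 and 327 CPM in sufficient ileal nodes, with no overlap. Deficient libraries, at 289, 288, 218, 245 and 245 CPM in duodenal and 254, 282, 267, 273 and 235 CPM in ileal nodes, overlapped. Between diets, duodenal ranges overlapped, and all 5 deficient ileal libraries lay below the sufficient ileal ones. In the fit with its sex term Plvap rose with deficiency in duodenal nodes (0.58 ± 0.12, adjusted p = 9.5e-04), the ileal change was -0.25 ± 0.12 (adjusted p = 0.25), and the interaction was 0.84 ± 0.16 (adjusted p = 0.0157). It was the single gene of 15 on the blood endothelial list that passed (0.223% of all genes did). The list's median was 0.26 and the general endothelial markers Pecam1 and Cdh5 had interactions of 0.20 (adjusted p = 0.57) and 0.26 (adjusted p = 0.76).

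Col12a1, Ltbp2, Prelp and Mmp14, which encode matrix proteins or a matrix protease and were grouped here after their values were seen, had a positive interaction. Col12a1 and Ltbp2 fell in ileal nodes, and Prelp and Mmp14 rose in duodenal nodes. The list of fibroblasts of adventitia and capsule and their matrix gave 0 of 18 by edgeR, with a median of 0.12. At an unadjusted p below 0.05 stood 1 of the 18 (1904 of all 18387 genes). Col12a1 (chr9:79598991-79718831, minus strand), a collagen XII chain that sits on collagen fibrils, overlapped between nodes on the sufficient diet, with 55.6, 35.96, 52.96, 47.5 and 49.1 CPM in duodenal and 39.7, 35.2, 54.1, 62.1 and 54.8 CPM in ileal libraries. Deficient duodenal libraries read 37.6, 40.7, 34.2, 44.6 and 40.9 CPM and deficient ileal ones 12.3, 18.7, 14.5, 19.3 and 15.97 CPM. The latter were below all 15 other libraries, and the fall in ileal nodes was -1.51 ± 0.16 (adjusted p = 5.2e-09) against -0.20 ± 0.15 in duodenal nodes (adjusted p = 0.463). The interaction was 1.31 ± 0.20 (adjusted p = 7.8e-04), a 2.48-fold difference of ratios. With females alone it was 0.99 (adjusted p = 0.525), and without the libraries rich in pancreas genes 1.18 (adjusted p = 0.0627).

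Ltbp2, a latent TGF-beta binding protein family member of microfibrils, read 200.2, 311, 224, 267 and 170.0 CPM in sufficient ileal nodes, above all 5 sufficient duodenal values of 140.2, 130.4, 103, 88.4 and 98.8 CPM. Deficient duodenal libraries at 94.5 to 172 CPM and deficient ileal ones at 112 to 165 CPM overlapped. It fell with deficiency in ileal nodes (-0.95 ± 0.15, adjusted p = 3.8e-05), and the interaction was 1.04 ± 0.20 (adjusted p = 0.0166). Prelp, a small leucine-rich proteoglycan, had 25.02, 22.6, 22.2, 17.2 and 27.9 CPM in sufficient duodenal nodes, below all values of the other groups. Those were 44.6, 38.7, 39.5, 40.1 and 47.5 CPM in deficient duodenal, 48.6, 32.1, 56.9, 53.5 and 40.9 in sufficient ileal and 53.8, 52.5, 35.3, 42.97 and 31.1 CPM in deficient ileal nodes. Prelp thus rose in duodenal nodes (0.90 ± 0.15, adjusted p = 7.2e-05), with an interaction of 0.98 ± 0.20 (adjusted p = 0.0189).

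Mmp14, a membrane-anchored matrix metalloproteinase, had the layout of Prelp. It averaged 42.5 ± 3.01 CPM in sufficient duodenal nodes and 63.6, 68.6 and 70.2 CPM in sufficient ileal, deficient duodenal and deficient ileal nodes (0.55 ± 0.12, adjusted p = 0.0382). Chst14, which sulfates dermatan chains of proteoglycans, averaged 6.91 ± 1.02 CPM in sufficient duodenal and 10.9 ± 1.56 CPM in deficient duodenal nodes, with no overlap. Its interaction was 0.82 ± 0.19 (adjusted p = 0.0412). Cyp1b1, a cytochrome P450 of stromal cells, fell in ileal nodes from 204 ± 25.1 to 101 ± 18.6 CPM, again with no overlap. That change was -1.06 ± 0.14 on the log2 scale (adjusted p = 6.7e-07), and the interaction was 0.78 ± 0.18 (adjusted p = 0.0444).

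Tspan7, a tetraspanin of the cell surface, read 80.6, 86.01, 113, 118 and 111 CPM in sufficient ileal and 46.4, 56.4, 48.3, 58.95 and 41.5 CPM in deficient ileal nodes, and these ranges did not overlap. Duodenal libraries were level, at 92.6, 67.7, 75.99, 78.4 and 80.1 CPM on the sufficient and 87.1, 73.3, 61.5, 76.8 and 80.4 CPM on the deficient diet. Tspan7 fell in ileal nodes (-0.92 ± 0.13, adjusted p = 4.3e-06), and the interaction was 0.94 ± 0.17 (adjusted p = 0.0103).

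Plk1 and Ucp2 were positive. Plk1, a kinase of mitosis, had 5.25, 7.94, 7.99, 5.15 and 7.88 CPM in sufficient duodenal nodes, below every library of the other groups. Sufficient ileal nodes read 14.7, 10.998, 11.1, 11.9 and 17.1 CPM, deficient duodenal nodes 14.2, 13.1, 14.3, 16.2 and 13.2 and deficient ileal nodes 12.7, 14.2, 13.7, 10.6 and 12.1 CPM. It rose in duodenal nodes (1.08 ± 0.17, adjusted p = 2.1e-05), and the interaction was 1.12 ± 0.22 (adjusted p = 0.0187). Of 20 cell cycle genes Plk1 alone passed (0.223% of all genes did), and 19 of the 20 had a positive sign (9455 of all 18387 genes did). At an unadjusted p below 0.05 stood 10 of the 20 (1904 of all genes), and the list's median was 0.49. The summed level of the list was 1070 CPM in sufficient ileal library 5 against 608 to 745 CPM in the other 4, and without sufficient number 5 the median was 0.31, with 16 of 20 positive and 5 at an unadjusted p below 0.05. Plk1 was at 1.03 without that number (adjusted p = 0.0401), and it missed the threshold without sufficient 1 or 4, without deficient 4 (adjusted p from 0.0838 to 0.101) and without the libraries rich in pancreas genes (adjusted p = 0.0874). Top2a and Mki67, which mark dividing cells, had interactions of 0.61 (adjusted p = 0.31) and 0.60 (adjusted p = 0.55). Ucp2, a carrier of the inner mitochondrial membrane, rose in duodenal nodes from 459 ± 75.6 to 767 ± 51.4 CPM, with no overlap. It stood at 663 and 741 CPM in ileal nodes (interaction 0.58 ± 0.13, adjusted p = 0.0401).

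Anxa2, Zmynd15 and 6 further positive genes rose in duodenal nodes on the deficient diet. Anxa2, a phospholipid-binding annexin, went from 67.6, 65.7, 79.4, 74.2 and 82.6 CPM to 175, 174, 125, 196 and 164 CPM there, with no overlap. In ileal nodes it rose less, from 90.5 ± 17.4 to 114 ± 25.4 CPM (interaction 0.84 ± 0.17, adjusted p = 0.0189). The MYND zinc finger gene Zmynd15 had 59.7, 72.4, 74.3, 55.3 and 75.2 CPM in sufficient duodenal and 151, 147, 98.98, 148 and 125 CPM in deficient duodenal nodes, again apart. Ileal libraries of Zmynd15 overlapped at 59.1 to 68.6 and 58.6 to 90.2 CPM (interaction 0.77 ± 0.16, adjusted p = 0.02). The 6 further genes, each with its interaction, were the G protein subunit Gna12 (0.56), the flotillin Flot2 (0.58), the adaptor Bcar3 (0.78), the semaphorin Sema4b (0.47), the actin-binding Tagln2 (0.51) and Shkbp1 (0.56).

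The negative genes beside Angpt2, Itgax and Ms4a4b were Atp8b4, Slc28a2b, Vps13c and Fam184b. Atp8b4, a lipid flippase of the P4 family, read 22.1, 19.04, 11.7, 13.04 and 16.7 CPM in sufficient ileal and 42.1, 34.8, 37.1, 37.9 and 33.6 CPM in deficient ileal nodes. The deficient ileal values were all higher, and the interaction was -0.80 ± 0.16 (adjusted p = 0.0189). The nucleoside transporter Slc28a2b averaged 30.5 ± 9.07 and 21.9 ± 4.21 CPM in sufficient and deficient duodenal nodes and 22.9 ± 6.24 and 36.5 ± 7.71 CPM in ileal ones (-1.14 ± 0.23, adjusted p = 0.0189). Its close relative Slc28a2 makes its share of reads uncertain. Vps13c, a lipid transfer protein, fell in duodenal nodes from 52.7 ± 9.02 to 39.9 ± 6.68 CPM and stood at 38.7 and 44.3 CPM in ileal nodes. Its interaction was -0.58 ± 0.13 (adjusted p = 0.0397). Fam184b reached at most 3.84 CPM in any group mean (-2.05 ± 0.47, adjusted p = 0.0417).

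The other positive genes were Gm47547 (1.77 ± 0.40), Fam171a1 (0.94 ± 0.22), Rtl8c (0.84 ± 0.18), Smco4 (0.77 ± 0.15) and the lysine methyltransferase Smyd2 (0.75 ± 0.18). Gm47547 is annotated as an antisense transcript and no source used here says that counting used strand, so reads of an overlapping gene cannot be told apart from its own. Smyd2 was the last gene inside the threshold (adjusted p = 0.0498). Among those just outside it were Dnlz (0.45, adjusted p = 0.0501) and Qtrt2 (-0.83, adjusted p = 0.0519).

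Ranges of 5 against 5 libraries were also compared over all members. On the deficient diet duodenal and ileal ranges did not overlap for 14 of the 41 genes, against 4.61% of all genes, and on the sufficient diet for 21, against 4.75%. Between diets 17 did not overlap in duodenal nodes (6.65% of all genes) and 16 in ileal nodes (5.71%). Since the 41 genes were selected on these same libraries, the shares describe them and support nothing. In deficient duodenal nodes library 3 was the lowest of its group for 17 of the 34 positive genes and the highest for 0. That library has a low Gm19220 share, and without the 10 libraries of low share in the series 19 genes passed, 16 of them among the 41.

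Jejunal, colonic and inguinal nodes were not compared by the contrast, though their libraries add to its estimates of spread and of the sex term. Their levels are described without a test. Fscn1 on the deficient diet went from 854 CPM in duodenal to 633 in jejunal and 324 CPM in ileal nodes, and was at 345 and 388 CPM in colonic and inguinal nodes. Zmynd15 was at 117 ± 17.2 CPM in deficient jejunal nodes, close to the duodenal mean, and at 74.4 CPM in colonic ones. Ccl22, in contrast, stood at 133 ± 27.003 CPM in deficient jejunal nodes against 157 ± 12.8 CPM in sufficient ones. Angpt2 reached 24.1 ± 5.91 CPM in deficient jejunal and 15.9 ± 8.25 CPM in deficient colonic nodes, below its ileal values. Col12a1 was lower on the deficient diet in jejunal (32.2 against 63.6 CPM) and colonic means too (20.98 against 36.3 CPM).

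The diet change in jejunal nodes was set against that in colonic and in inguinal nodes, which uses none of the 20 libraries. The 2 medians over the 34 positive genes had opposite signs, and no test was run. Tnfrsf4, Zmynd15 and Fscn1 were positive in both differences, and Col12a1, Tspan7 and Csf1 negative in both. Jejunal minus colonic had a positive sign for 21 of the 34 positive genes, against 50.1% of all genes, with a median of 0.07 on the log2 scale. It was negative for 6 of the 7 negative genes (for 9177 of all 18387). Jejunal minus inguinal had a positive sign for 12 of the 34, against 50.8% of all genes, with a median of -0.10, and for 5 of the 7 negative genes. For Tnfrsf4 jejunal minus colonic was 0.70, for Zmynd15 0.66, for Nudt17 and Ccl22 0.58 and 0.57, and for Fscn1 0.42, whereas for Col12a1, Tspan7 and Csf1 it was -0.19, -0.16 and -0.17. Jejunal minus inguinal was 0.54 for Tnfrsf4, 0.81 for Zmynd15 and 0.39 for Fscn1, but -0.49 for Ccl22 and 0.06 for Nudt17, and -0.60, -0.84 and -0.60 for Col12a1, Tspan7 and Csf1.

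**Figure D3:**
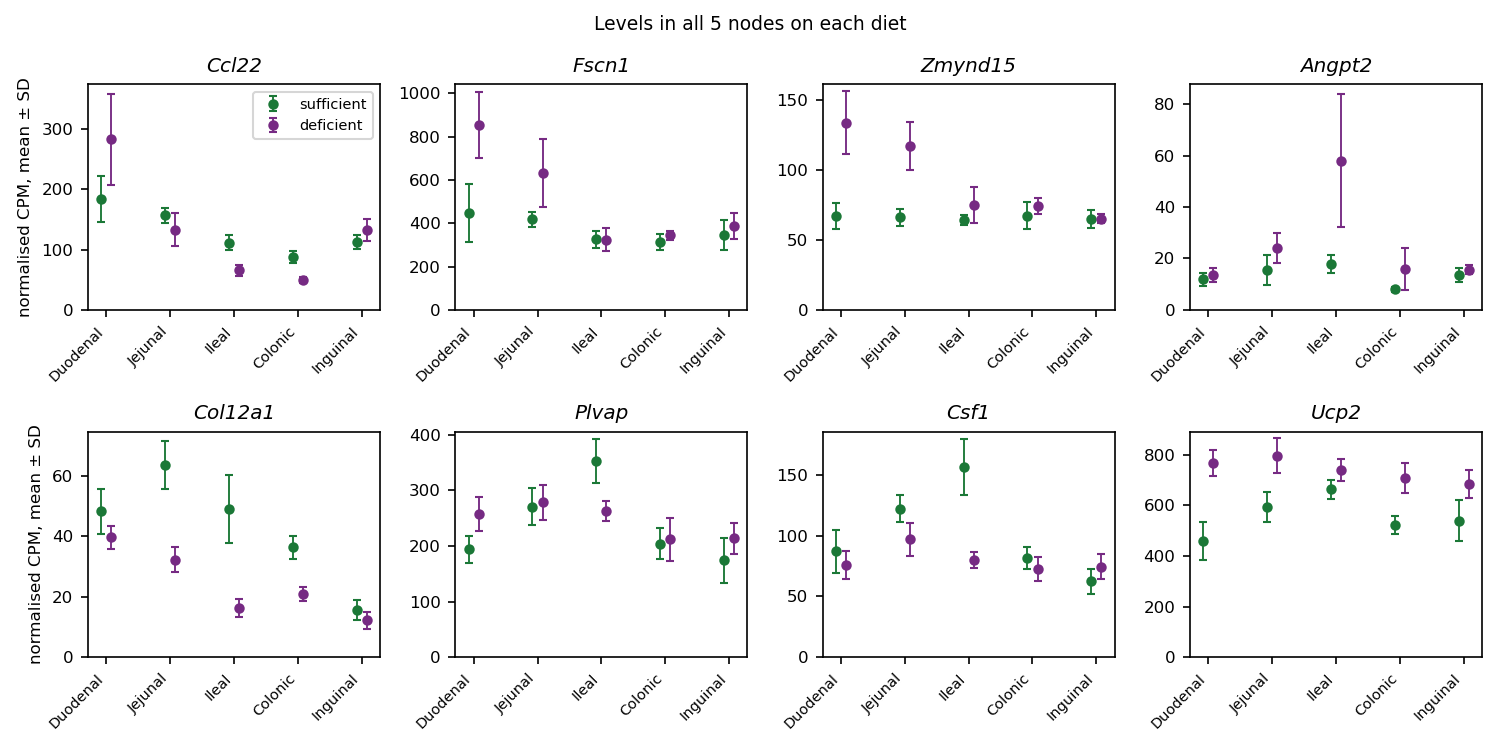
Mean ± SD (n = 5 libraries) of 8 genes in normalised CPM (vertical axes) in the 5 nodes on the sufficient (green) and deficient (purple) diets. Zmynd15 and Fscn1 are raised in deficient duodenal and jejunal nodes, Angpt2 stands out in deficient ileal nodes, and Csf1 and Plvap in sufficient ileal nodes.

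Genes that handle vitamin A did not pass. Of 24 genes of retinoid metabolism and 18 retinoic acid receptors and response genes tested, 0 passed by edgeR. At an unadjusted p below 0.05 stood 4 and 3 (1904 of all 18387 genes did), and the medians were 0.10 and 0.02. Aldh1a2, which makes retinoic acid from retinal, read 40.5, 55.1, 75.4, 36.4 and 67.7 CPM in sufficient duodenal and 33.3, 37.5, 36.3, 29.003 and 48.6 CPM in sufficient ileal nodes. Deficient libraries read 1.80, 2.12, 0.865, 2.82 and 2.30 CPM in duodenal and 1.49, 4.80, 1.08, 5.51 and 2.08 CPM in ileal nodes, far below the sufficient ones in either node. The fall was -4.66 ± 0.34 in duodenal and -3.50 ± 0.32 in ileal nodes on the log2 scale, and the difference between them was -1.16 ± 0.45 (adjusted p = 0.327).

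Lrat, which esterifies retinol for storage, changed by -4.29 and -3.16 on the log2 scale in duodenal and ileal nodes (interaction -1.14 ± 0.41, adjusted p = 0.28). Cyp26b1, which breaks retinoic acid down, changed by -3.27 and -3.66 (interaction 0.40 ± 0.67, adjusted p = 0.901). The receptor gene Rarb had an interaction of -0.78 ± 0.79 (adjusted p = 0.808) and the response gene Hic1 one of -0.24 ± 0.22 (adjusted p = 0.768). The smallest p of the metabolism list belonged to Fabp5, a fatty acid binding protein that also carries retinoic acid. Fabp5 rose in duodenal nodes (1.22 ± 0.22, adjusted p = 1.2e-04), and had an interaction of 1.15 ± 0.28 (adjusted p = 0.0613). Gut homing genes did not pass either (0 of 16 by edgeR, 1 at an unadjusted p below 0.05, against 1904 of all 18387 genes). Gpr15, the colon homing receptor, had an interaction of 0.94 ± 0.24 (adjusted p = 0.0707). Ccr9, the small intestinal one, had -0.31 ± 0.20 (adjusted p = 0.645).

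**Figure D4:**
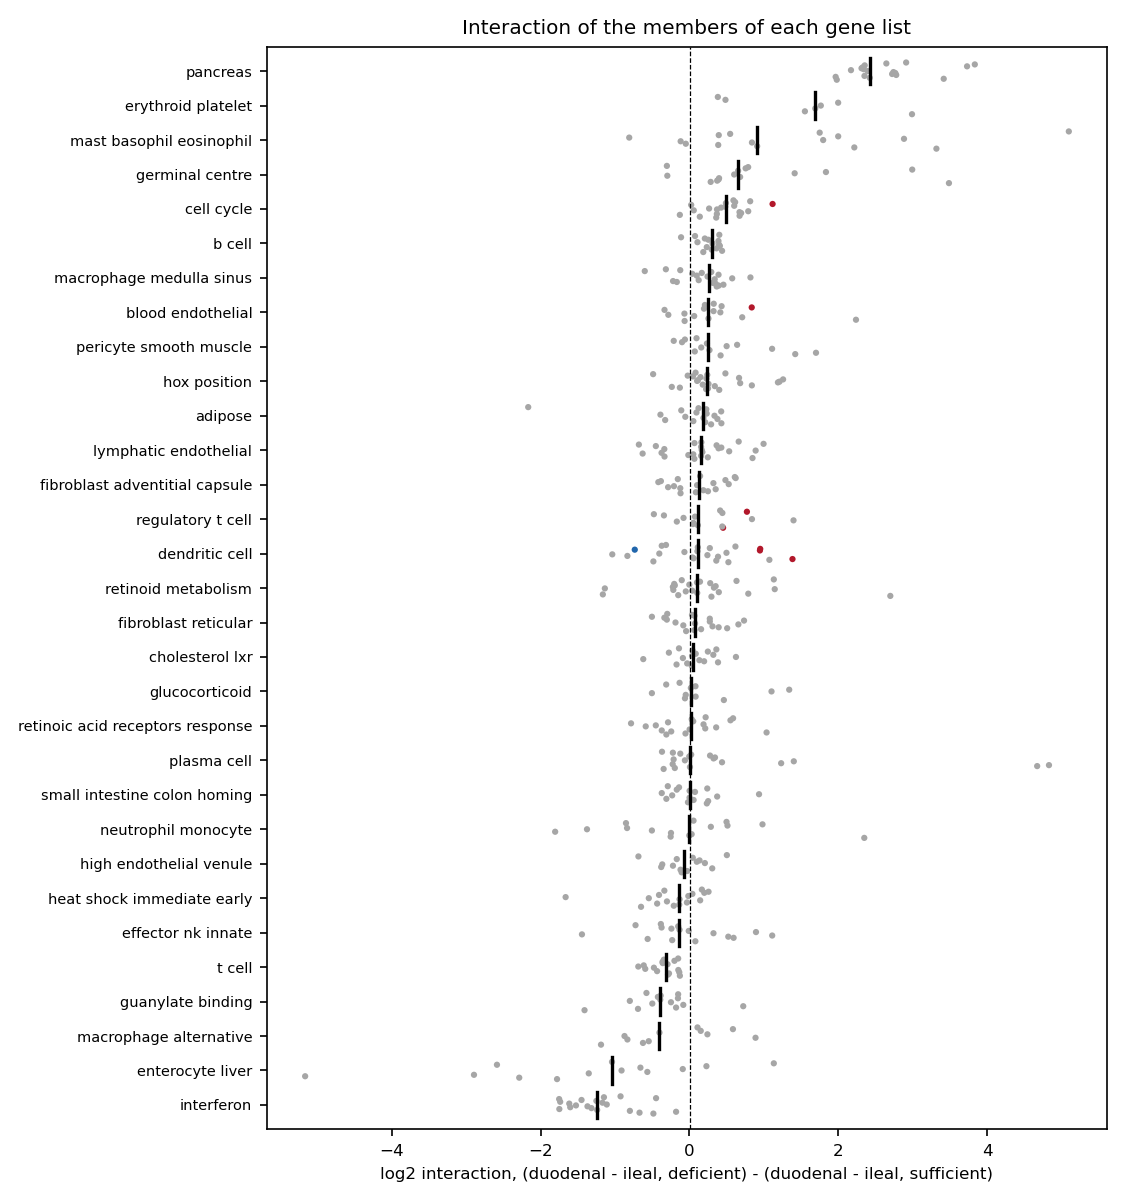
Log2 interaction (horizontal axis) of each tested member of 31 gene lists (1 line each), with red and blue for members past the threshold in the positive and negative direction, grey for the others, and a black bar at the median. The medians run from -1.25 for interferon genes to 2.42 for pancreas genes, and no gene of either list passed.

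Markers of tissue next to the nodes also differed between libraries. All 19 pancreas genes tested had a positive sign (9455 of all 18387 genes did) with a median of 2.42, and 0 passed by edgeR (0 at an unadjusted p below 0.05 as well). Their summed level ran from 69.8 to 344405 CPM in deficient duodenal and from 668 to 440901 CPM in sufficient duodenal nodes, and from 13.8 to 3910 CPM over ileal nodes. With pancreas genes and Gm19220 removed before scaling 44 genes passed, all 41 among them. Of 13 tested genes of intestinal epithelium and liver 0 passed by edgeR (4 at an unadjusted p below 0.05, against 1904 of all 18387 genes). Their summed level was at most 352 CPM. The 17 adipose genes gave 0 (0 at an unadjusted p below 0.05) with a median of 0.19.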

How the data were processed

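RNA was extracted with TRIzol and made into poly(A) libraries, per the labels' protocols. The authors deposited 1 table of estimated counts with 56600 gene entries, 379 of them unnamed. Tools named in the submitters' processing notes are kallisto, edgeR and limma. The notes list mm10 and GRCm39 as builds. The sources used here give neither a version nor the use of each.

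Estimated counts were rounded, genes were filtered with filterByExpr (18387 kept) and libraries scaled with TMM. A mean for each of the 10 diet and node groups and a sex term were fitted to all 50 libraries with edgeR 4.0.16 (limma 3.58.1, R 4.3.3), so that the other 30 libraries add to the estimate of spread. The sex term rests on the sufficient diet, the one with males. The interaction was tested with the quasi-likelihood F test with p-values adjusted after Benjamini and Hochberg across genes (threshold 0.05). Standard errors are approximate, the log2 value divided by the root of F. Levels are TMM-normalised CPM.

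The members, the 31 gene lists and the alternatives were chosen with earlier results of these data known. Named were the 15 genes per direction with the largest interaction among those with at least 5 CPM in a group mean, the 5 per direction with the smallest adjusted p, up to 4 members of each list that passed or otherwise the 1 with the smallest p, and 22 set genes. The remaining called genes were named after their values were seen. Some genes the rule names are not reported here. Positions come from GENCODE M21, which holds 51486 of the identifiers. The fit was tested on simulated counts.

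Alternatives were RLE and upper-quartile scaling, DESeq2 1.42.0, limma-voom with and without sample weights, other filters, fewer libraries in the fit, other sex terms, a replicate block, and fits without some library numbers or libraries with much pancreas RNA or little Gm19220. Plots used matplotlib 3.10.9 (Python 3.11.15).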

Additional observations from a re-analysis of the deposited data

Results flagged for a closer look

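The difference between duodenal and ileal nodes itself differed between diets for 41 genes by the test of the interaction. In 5 of 164 groups of 5 libraries of these genes (3.05%), 1 library stood far from the other 4 by Dixon's criterion, which chance reaches in about 1 in 20 groups. Bcar3 was at 103 CPM in sufficient ileal library 1 against 70.1 to 76.5 CPM in the other 4. Lrg1 was at 116 CPM in sufficient duodenal library 3 against 84.6 to 92.6 CPM. In sufficient ileal library 5, Ms4a4b was at 145 CPM against 116 to 122 CPM and Nudt17 at 30.1 CPM against 20.9 to 23.0 CPM. Smyd2 was at 37.3 CPM in deficient ileal library 4 against 21.5 to 24.5 CPM.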

How the results depend on the processing

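All 41 genes kept their direction under 28 alternatives, and 585 of 1148 gene values stayed past the threshold, but no gene passed under all of them. The alternatives reuse libraries on which the genes were selected, so a kept direction adds no support. Ccl22 and Col12a1 passed in 25 each. The count of 41 stayed within 1.5 times under RLE (44), limma-voom (43), a filter of at least 1 CPM in 5 libraries (39), a term for low Gm19220 (33) and removal of pancreas genes and Gm19220 (44). It was 137 with DESeq2 (65.7% positive, against 82.9%), 65 with sample weights, 9 with no filter on low counts, 24 with duodenal, jejunal and ileal libraries, 2 with duodenal and ileal libraries, 13 without a sex term, 0 with a sex term for each node and 0 with females alone. It was 19 without libraries of low Gm19220 (68.4% positive) and 1 without those over 1% pancreas genes. Chosen after seeing the data were the fit without the libraries over 20% pancreas genes, with 26 calls, and upper-quartile scaling, with 36. Leaving out a library number gave from 2 (without sufficient 4) to 39 (without sufficient 2) calls. The replicate number as a block gave 97 calls (71.1% positive). Deviations of duodenal and ileal libraries of 1 number correlated at 0.0176 to 0.375, above 0.1 in 5 of 10 pairs, and 5 of 10 libraries correlated best with their own number. After the sex term these were 4 and 2. Numbers were to be taken as pairs only if every pair was above 0.1, which was not met. The cause of these moves was not tested. Of 51 named genes that did not pass, 47 of 1426 values passed under an alternative. Genes under about 5 CPM (Tnfrsf8, Fam184b, Gm47547 in 3 of its groups) rest on few counts.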

Other observations

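Genes induced by type I interferon were called for none of 20 members by edgeR, with 12 at an unadjusted p below 0.05 (1904 of all 18387 genes). All 20 had a negative interaction, where 9455 of all genes had a positive one, and the median was -1.25, against 0.01 over all genes. On the deficient diet 17 of the 20 were lower in duodenal than in ileal nodes (2.7% of all genes were called lower there), and on the sufficient diet 0. Their summed level was 1798, 2220, 1899, 4767 and 1203 CPM in deficient ileal libraries 1 to 5 and 911 to 1337 CPM in deficient duodenal ones, so library 4 was the highest by far. Without deficient number 4 the median was -0.65, with 18 of 20 negative and 1 at an unadjusted p below 0.05. Sufficient libraries ranged from 889 to 1117 CPM in duodenal and from 880.2 to 1553 CPM in ileal nodes. Oas2, which senses double-stranded RNA, had the smallest p of the list, at -1.74 ± 0.55 (adjusted p = 0.19). The 14 guanylate-binding genes had a median of -0.39, with 13 of the 14 negative in sign (9455 of all 18387 genes were positive). By edgeR 0 were called, with 4 at an unadjusted p below 0.05 (1904 of all genes), 3 of them negative and 1 positive.

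T cell genes had a negative sign in 16 of 16 (9455 of all 18387 genes had a positive one), with a median of -0.32 and 0 called by edgeR. At an unadjusted p below 0.05 stood 8 of them, all negative, against 788 negative genes of all 18387. On the sufficient diet 10 of them were higher in duodenal than in ileal nodes (3.05% of all genes were), and on the deficient diet 0 (2.9%). With deficiency 10 rose in ileal (2.74% of all genes) and 2 in duodenal nodes (6.19%). The costimulatory receptor Cd28 had -0.56 ± 0.13 (adjusted p = 0.0527). The summed level of the 16 T cell genes was 1975 to 2453 CPM in sufficient ileal nodes and 2646 to 3452 CPM over the other 3 groups. B cell genes had a positive sign in 14 of 15 (median 0.30, 0 called by edgeR). At an unadjusted p below 0.05 stood 8 of the 15, all positive, against 1116 positive genes of all 18387. Of 15 mast cell, basophil and eosinophil genes, 12 rose with deficiency in duodenal (6.19% of all genes) and 10 in ileal nodes (2.74%). Their median interaction was 0.91 with 0 called by edgeR (4 at an unadjusted p below 0.05, against 1904 of all 18387 genes). The mast cell proteases Cma1 and Mcpt4 had 3.32 ± 0.94 (adjusted p = 0.128) and 2.88 ± 0.94 (adjusted p = 0.207). Duodenal minus ileal was 1.29 ± 0.40 and 1.16 ± 0.38 on the deficient diet. On the sufficient diet it was -2.03 ± 0.87 and -1.72 ± 0.87, neither called. That part rests on far lower levels, since the genes rose with deficiency by log2 7.07 and 7.41 in duodenal and 3.75 and 4.53 in ileal nodes.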
